A study of Mus musculus with 4 samples.

Results

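The 46 genes described here encode the machinery that copies DNA, and they were chosen by name: the rule uses no measured value, though earlier results of these data were known when it was set. They were the rows of the deposited transcript table whose gene name was that of an MCM protein (Mcm2 to Mcm8 and Mcm10), an origin recognition or licensing factor, an activator of the helicase, the clamp or its loader, 1 of 9 subunits of the replicative polymerases and primase, RPA, a factor of Okazaki fragments or an enzyme of nucleotide supply. All 46 were found among 52327 gene names, in 322 transcripts, and all passed the filter on low counts that left 16355 genes. RNA was sequenced from mouse 46C cells, a single line of embryonic stem cells with GFP inserted at the neural gene Sox1. One state was rfISCs, labelled as stem cells that stand between the rosette and the formative stage and grown in PIF medium, whose components the labels do not give. The control was ESCs of the same line in 2i medium, where blocking the kinases MEK and GSK3 maintains naive pluripotency. There were 2 libraries of each, and separate cultures are not stated in the labels; every p-value therefore reflects variation among these 4 libraries, which could be technical alone.

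Replication starts at origins, where the origin recognition complex (Orc1 to Orc6) together with Cdc6 and Cdt1 loads the ring of Mcm2 to Mcm7 onto DNA in G1. Geminin, the product of Gmnn, binds Cdt1 and stops loading later in the cycle. In S phase Cdc45 and the GINS complex join the ring to form the active helicase, primase and polymerase alpha lay primers, polymerases delta and epsilon extend them on the Pcna clamp, and Fen1 and Lig1 finish the lagging strand. Many of these genes are transcribed at the G1/S transition through E2F factors, whose sites lie close to the start of transcription. Mouse embryonic stem cells cycle fast with a short G1, and licence many origins.

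Promoter sequences of 6 members are shown, because the data on E2F genes given further on bear on them. Cdc6, Rfc3 and Mcm7 had the 3 largest rises. Pola1, Orc3 and Orc5 had the 3 largest falls among called members with a promoter entry. Prim2, which fell more than Orc3, had no entry. Each runs from 250 bases before to 50 bases after the RefSeq start of the gene, on the gene's own strand, in build GRCm38.p6. Capitals mark a match to an E2F sequence of 8 letters (TTTCCCGC, TTTCGCGC, TTTGCCGC or TTTGGCGC, or the reverse complement of one).
Cdc6, chr11:98907901-98908200, plus strand: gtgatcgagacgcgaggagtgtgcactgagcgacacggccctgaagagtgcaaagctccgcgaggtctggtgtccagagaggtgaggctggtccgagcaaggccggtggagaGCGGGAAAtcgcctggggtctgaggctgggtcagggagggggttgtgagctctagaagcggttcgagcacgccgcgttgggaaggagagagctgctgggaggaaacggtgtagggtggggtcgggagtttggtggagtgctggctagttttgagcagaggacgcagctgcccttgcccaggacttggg
Rfc3, chr5:151651159-151651458, minus strand: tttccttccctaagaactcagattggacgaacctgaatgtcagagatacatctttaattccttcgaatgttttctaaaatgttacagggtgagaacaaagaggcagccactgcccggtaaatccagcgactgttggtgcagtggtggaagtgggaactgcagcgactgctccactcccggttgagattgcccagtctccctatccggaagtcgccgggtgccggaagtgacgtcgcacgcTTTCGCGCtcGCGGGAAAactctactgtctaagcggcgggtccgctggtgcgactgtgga
Mcm7, chr5:138171834-138172133, minus strand: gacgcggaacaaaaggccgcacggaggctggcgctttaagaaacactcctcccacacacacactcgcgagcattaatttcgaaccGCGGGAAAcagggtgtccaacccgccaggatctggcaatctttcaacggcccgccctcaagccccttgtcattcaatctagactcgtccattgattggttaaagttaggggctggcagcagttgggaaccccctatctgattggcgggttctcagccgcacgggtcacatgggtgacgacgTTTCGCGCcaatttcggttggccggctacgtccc
Pola1, chrX:93632106-93632405, minus strand: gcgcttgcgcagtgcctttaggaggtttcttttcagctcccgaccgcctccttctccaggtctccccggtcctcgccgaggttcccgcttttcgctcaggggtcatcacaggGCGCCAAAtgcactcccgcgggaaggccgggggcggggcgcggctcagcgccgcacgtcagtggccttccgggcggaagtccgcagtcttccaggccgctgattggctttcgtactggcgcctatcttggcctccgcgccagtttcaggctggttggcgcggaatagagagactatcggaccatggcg
Orc3, chr4:34614893-34615192, minus strand: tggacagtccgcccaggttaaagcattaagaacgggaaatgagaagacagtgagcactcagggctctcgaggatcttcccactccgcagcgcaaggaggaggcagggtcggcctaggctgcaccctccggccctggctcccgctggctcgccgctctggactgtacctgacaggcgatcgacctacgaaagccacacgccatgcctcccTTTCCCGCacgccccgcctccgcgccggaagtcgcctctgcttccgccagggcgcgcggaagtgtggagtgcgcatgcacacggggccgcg
Orc5, chr5:22550289-22550588, minus strand: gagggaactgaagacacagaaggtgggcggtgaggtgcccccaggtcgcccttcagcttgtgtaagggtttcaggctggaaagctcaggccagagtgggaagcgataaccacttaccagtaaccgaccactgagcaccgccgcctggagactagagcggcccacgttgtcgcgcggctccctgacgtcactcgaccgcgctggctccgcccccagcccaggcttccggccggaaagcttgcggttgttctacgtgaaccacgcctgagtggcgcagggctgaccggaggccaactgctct
Counted from the first transcribed base as 1, the matches began at -138 in Cdc6, at -10 and 1 in Rfc3, at -165 and 17 in Mcm7, at -138 in Pola1 and at -41 in Orc3. The Orc5 window held none of these letters. Mcm7 had 2 RefSeq entries, of which the first is printed.

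Total estimated counts were 21499590 and 23780989 in the rfISCs libraries and 19243701 and 21517544 in the ESCs libraries. Members had 360 to 12586 counts in a library. Of the markers of the labelled states, all 8 naive genes tested were lower in rfISCs and all 7 formative and rosette genes were higher, while the 5 core pluripotency genes split into 2 higher, 2 lower and 1 not called. Markers of other cell types also moved, given here in CPM, the counts scaled to library size with the TMM correction of edgeR. Summed CPM of 12 fibroblast and feeder genes was 28.2 and 24.3 in rfISCs, against 8.40 and 13.6 in ESCs, with 4 of the 7 tested higher and Lum, S100a4 and Fap at 0 in every library. Col4a1 (mean 49.7 CPM in rfISCs, 4.25 CPM in ESCs) and Lama1 (24.3 CPM in rfISCs, 14.2 CPM in ESCs) held most of the CPM of 9 primitive endoderm genes. Summed over the 9 genes, CPM was 91.7 and 93.5 in rfISCs, against 18.7 and 27.7 in ESCs, with 5 of 6 tested higher. Among these, Gata4 averaged 3.59 ± 0.741 CPM in rfISCs and 1.88 ± 0.117 CPM in ESCs, Foxa2 2.25 ± 0.982 CPM in rfISCs and 0.1002 ± 0.0645 CPM in ESCs, and Dab2 8.40 ± 0.337 CPM in rfISCs and 0.288 ± 0.133 CPM in ESCs (SD, n = 2 libraries each), while Gata6 and Sox17 were at 4 counts or fewer in every library. Summed CPM of 8 neural genes was 288 and 289 in rfISCs, against 171 and 139 in ESCs, with all 7 tested higher. Most of this sum was Nes (mean 89.5 CPM in rfISCs, 65.6 CPM in ESCs) and Tubb3 (109 CPM in rfISCs, 74.9 CPM in ESCs). Sox1 averaged 36.8 CPM in rfISCs and 1.53 CPM in ESCs, and Pax6 25.9 CPM in rfISCs and 1.54 CPM in ESCs. Summed CPM of 8 trophoblast genes was 12.1 and 11.4 in rfISCs, against 4.96 and 7.04 in ESCs, with 3 of 4 tested higher, 1 lower and Tpbpa at 0 throughout. Their part in the results on replication genes was not tested.

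The replication genes moved little, and more of them rose than fell in rfISCs. By edgeR's quasi-likelihood test with Benjamini-Hochberg adjustment over all 16355 tested genes, 21 of 46 members (45.65%) were called higher in rfISCs, where 27.3% of all tested genes were, and 6 of 46 (13.04%) were called lower, where 26.4% of all tested genes were. The other 19 did not pass an adjusted p of 0.05; in either direction, 53.7% of all tested genes were called. Changes of at least 1.5-fold were found in 2 members that rose, Cdc6 and Rfc3, against a background of 17.1% of genes, and in 1 that fell, Pola1, against a background of 15.6%. The median log2 fold change was 0.14 over the members and 0.00 over all genes tested, and the median size of a change was 0.22 on the log2 scale for members, against 0.43 for all genes. No member reached a log2 fold change of 1 in either direction.

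CPM summed over the 46 members was 6854 and 6904 in rfISCs, against 6050 and 6115 in ESCs. Both rfISCs libraries were above both ESCs libraries in this sum. For 40 members the rfISCs and ESCs values did not overlap, 24 with rfISCs above and 16 with rfISCs below; of all tested genes the groups did not overlap for 77.7%, made up of 39% with rfISCs above and 38.7% with rfISCs below. In bulk RNA, a change in the share of cells that are in S phase and a change in RNA per cell cannot be told apart.

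**Figure D1:**
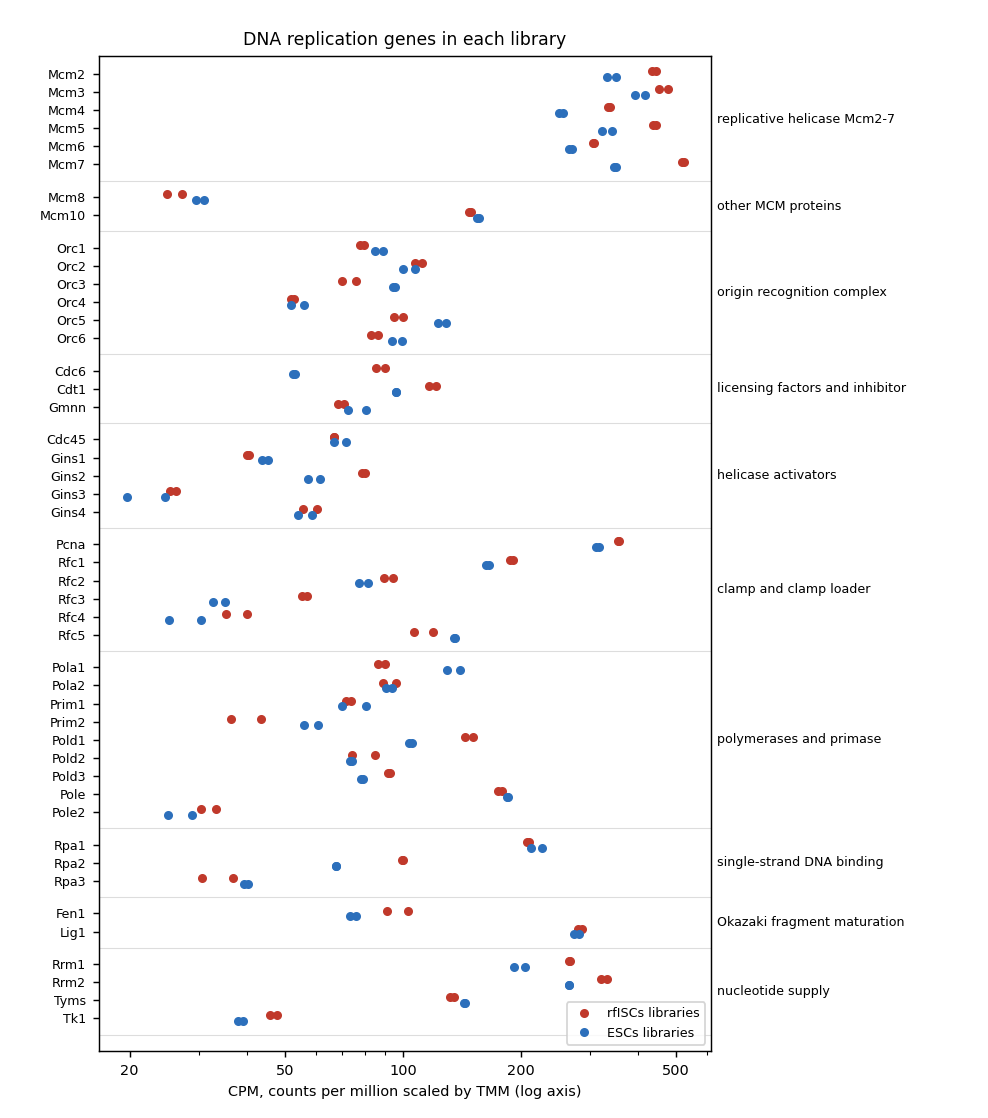
CPM of each of the 46 replication genes in the 2 rfISCs libraries (red) and the 2 ESCs libraries (blue), on a log axis and grouped by role. Mean CPM ran from 24.0 to 434 over the members, and the red and blue points do not overlap for 40 of them.

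The call counts depended on the rfISCs libraries and on the scale. Fewer members were called higher when either rfISCs library was left out. Fewer of all tested genes, counted over the 2 directions, were called in those fits too. In each fit the members called higher lost a larger share of their calls than all tested genes did. Whether this loss was particular to the members was not tested. Of the called members, 77.8% were higher with TMM scaling, against 84.6% with library totals and 91.7% with limma on log2(TPM + 1), where TPM is the authors' level corrected for transcript length and 22 were higher and 2 lower. Log2(TPM + 1) moved the median of all genes by 0.15 and that of the members to 0.27; with each library's median subtracted, the members' median was 0.13, with 18 higher and 3 lower. Of the 21 members called higher, 12 kept their call under each of the 13 alternatives tried: Mcm2, Mcm4, Mcm5, Mcm7, Cdc6, Cdt1, Gins2, Rfc3, Pold1, Rpa2, Rrm1 and Rrm2. Of the 6 called lower, Pola1 alone kept it under all 13.

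**Figure D2:**
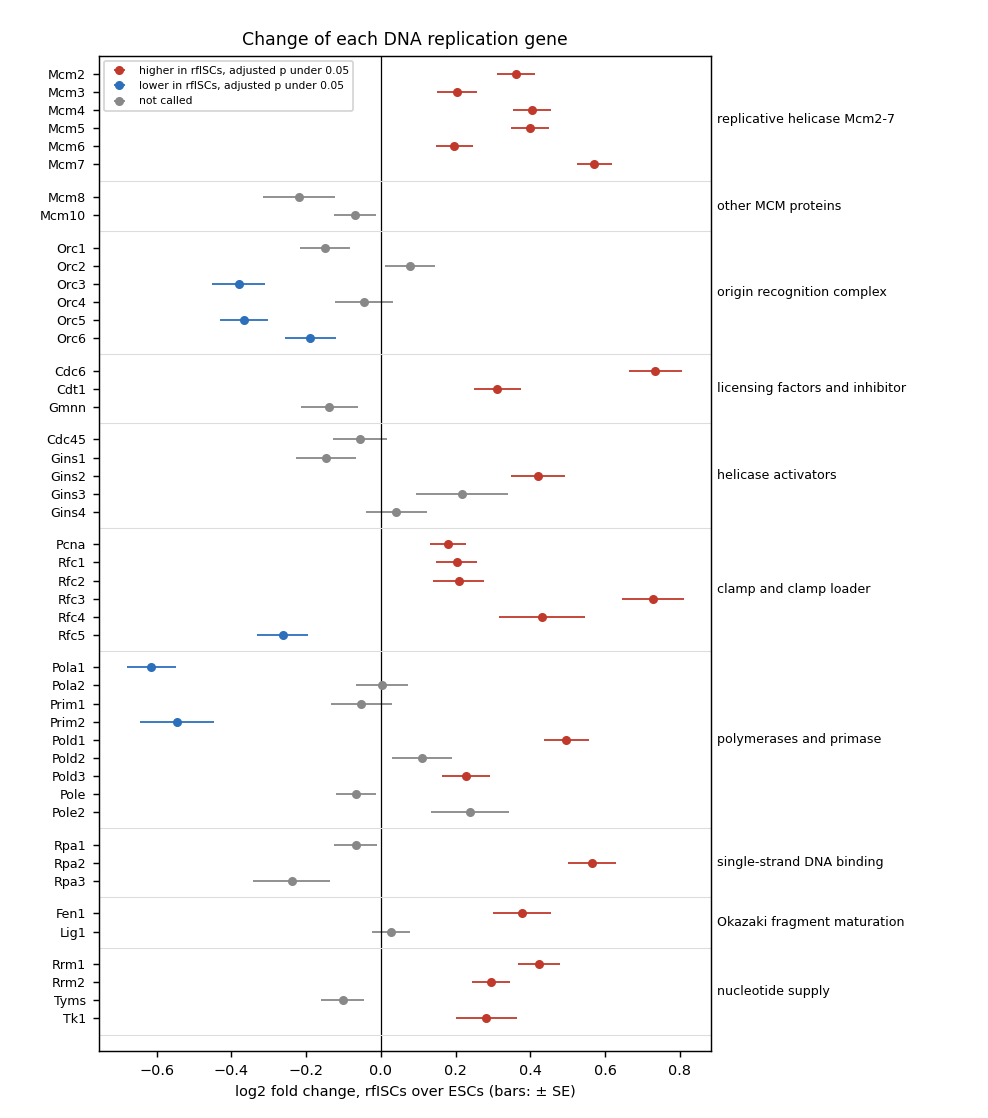
Log2 fold change of each replication gene, rfISCs over ESCs, with bars for ± 1 SE from edgeR's quasi-likelihood fit and colours for the call. All 6 genes of the Mcm2 to Mcm7 ring lie right of 0, and the called subunits of the origin recognition complex lie left of it.

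All 6 genes of the ring Mcm2 to Mcm7, the motor of the replicative helicase, were called higher in rfISCs. That share was 100%, against 27.3% of all tested genes, and the ring genes had a median log2 fold change of 0.38. Their summed CPM was 2482 and 2526 in rfISCs, against 1956 and 1943 in ESCs. Mcm7 had the largest change of the 6, at 516 and 522 CPM in rfISCs against 347 and 352 CPM in ESCs. Both rfISCs values lay far above both ESCs values, with a fold of 1.49 (log2 fold change 0.57, SE 0.0465, adjusted p = 8.77e-06, edgeR). Mcm4 had 338 and 334 CPM in rfISCs against 251 and 257 CPM in ESCs (log2 fold change 0.40, adjusted p = 0.000134, edgeR). Mcm5 had 435 and 443 CPM in rfISCs against 343 and 322 CPM in ESCs (log2 fold change 0.40, adjusted p = 0.00018, edgeR). Mcm2 had 433 and 445 CPM in rfISCs against 333 and 350.0 CPM in ESCs (log2 fold change 0.36, adjusted p = 0.000281, edgeR). In these 3 genes, too, the lower rfISCs library exceeded the higher ESCs library.

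Mcm3 and Mcm6 rose less. Mcm3 had 452 and 477 CPM in rfISCs against 416 and 391 CPM in ESCs (log2 fold change 0.20, adjusted p = 0.0104, edgeR), and its call was lost without rfISCs replicate 2 (adjusted p = 0.125). Mcm6 had 308 and 307 CPM in rfISCs against 266 and 270.4 CPM in ESCs (log2 fold change 0.20, adjusted p = 0.00849, edgeR), and its call was lost without either rfISCs library (adjusted p = 0.0734 and 0.0735). The ratio of Mcm7 to Mcm6 CPM within a library was 1.67 and 1.70 in rfISCs, against 1.30 and 1.30 in ESCs; this pair, like the other within-library ratios given here, was chosen after the values were seen.

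Outside the ring, Mcm8, which acts with Mcm9 in homologous recombination, and Mcm10, a factor that helps to start the helicase, did not pass the test. Mcm8 averaged 26.0 ± 1.62 CPM in rfISCs and 30.3 ± 1.05 CPM in ESCs (SD, n = 2 libraries each, as for every mean below; log2 fold change -0.22, adjusted p = 0.0853, edgeR). Mcm10 averaged 148 ± 1.65 CPM in rfISCs and 155 ± 1.41 CPM in ESCs (log2 fold change -0.07, adjusted p = 0.339, edgeR).

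The origin recognition complex, which marks where the ring is loaded, did not rise with it. Of its 6 genes, 3 (50%) were called lower in rfISCs (Orc3, Orc5 and Orc6), and none was called higher with TMM scaling. Of all tested genes, 26.4% were called lower and 27.3% higher. The median log2 fold change of the complex was -0.17. On log2(TPM + 1), where the median of all genes lay above 0, Orc4 was instead called higher (0.26, adjusted p = 0.0400, limma). Orc5 had 99.96 and 94.97 CPM in rfISCs against 123 and 128 CPM in ESCs, with no overlap. It fell 1.29-fold (log2 fold change -0.37, SE 0.0641, adjusted p = 0.00112, edgeR). Orc3 had 76.0 and 69.7 CPM in rfISCs against 94.0 and 95.5 CPM in ESCs, again with both rfISCs libraries lower. It fell 1.30-fold (log2 fold change -0.38, SE 0.0708, adjusted p = 0.00160, edgeR). Orc6 had 82.7 and 86.6 CPM in rfISCs against 93.5 and 99.5 CPM in ESCs (log2 fold change -0.19, adjusted p = 0.0405, edgeR), a call that was lost under 10 of the 13 alternatives.

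The other 3 subunits did not pass the test. Orc1, the subunit with the most regulated level through the cell cycle in human cells, had 77.7 and 79.3 CPM in rfISCs against 84.9 and 89.0 CPM in ESCs (log2 fold change -0.15, adjusted p = 0.0886, edgeR). Orc2 had 107 and 112 CPM in rfISCs against 107 and 100.1 CPM in ESCs, and Orc4 had 52.6 and 51.8 CPM in rfISCs against 51.8 and 55.8 CPM in ESCs, so the groups overlapped in both. On log2(TPM + 1) the calls of Orc3, Orc5 and Orc6 were lost (log2 differences of -0.09, -0.18 and -0.03; adjusted p = 0.453, 0.0817 and 0.714, limma). With the median of each library subtracted, Orc5 was called again at -0.32 (adjusted p = 0.0179, limma), while Orc3 at -0.23 (adjusted p = 0.0791) and Orc6 at -0.17 (adjusted p = 0.0844) were not.

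**Figure D3:**
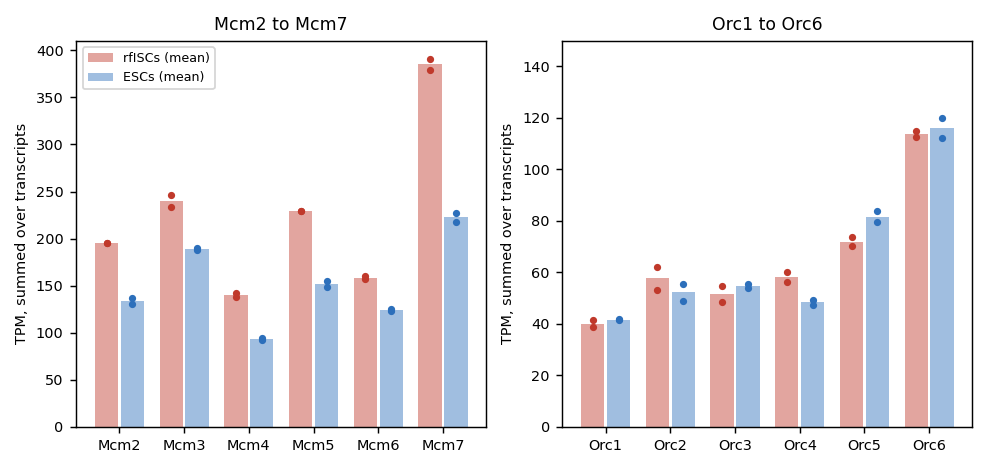
TPM of the ring genes Mcm2 to Mcm7 (left) and of the origin recognition genes Orc1 to Orc6 (right), summed over transcripts, with bars for the mean of 2 libraries and points for each library. Every ring gene has both rfISCs points above both ESCs points; among the Orc genes this holds for Orc4 alone, and Orc5 has both rfISCs points below.

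Both factors that help the origin recognition complex to load the ring were called higher, and their inhibitor was not called. Of these 3 genes, 66.7% were thus called higher, against 27.3% of all tested genes. Cdc6, the ATPase that binds the complex in G1, had 85.3 and 89.7 CPM in rfISCs against 52.8 and 52.4 CPM in ESCs. The groups were far apart and the 1.66-fold rise was the largest among the members (log2 fold change 0.73, SE 0.0703, adjusted p = 2.5e-05, edgeR). Cdt1, which escorts the ring to the origin, had 116 and 122 CPM in rfISCs against 95.8 and 96.2 CPM in ESCs, a rise of 1.24-fold (log2 fold change 0.31, SE 0.0622, adjusted p = 0.00239, edgeR). Gmnn had 68.2 and 70.7 CPM in rfISCs against 72.3 and 80.5 CPM in ESCs (log2 fold change -0.14, adjusted p = 0.160, edgeR). Without ESCs replicate 1, Gmnn was called lower at -0.22 (adjusted p = 0.0132). The ratio of Cdt1 to Gmnn CPM was 1.71 and 1.72 in rfISCs, against 1.32 and 1.20 in ESCs, and the ratio of Cdc6 to Orc1 CPM was 1.10 and 1.13 in rfISCs, against 0.622 and 0.589 in ESCs. Neither ratio overlapped between the groups.

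Of the 5 genes that turn the loaded ring into an active helicase, Gins2 was the one called (20% higher, against 27.3% of all tested genes). It had 78.5 and 80.002 CPM in rfISCs against 61.5 and 57.0 CPM in ESCs, a rise of 1.34-fold (log2 fold change 0.42, SE 0.0728, adjusted p = 0.00104, edgeR). Its partners in the GINS complex differed from it in call: Gins1 averaged 40.2 ± 0.418 CPM in rfISCs and 44.4 ± 1.13 CPM in ESCs, Gins3 25.8 ± 0.703 CPM in rfISCs and 22.1 ± 3.53 CPM in ESCs, and Gins4 57.8 ± 3.46 CPM in rfISCs and 56.2 ± 3.07 CPM in ESCs. Adjusted p-values from edgeR were 0.155, 0.166 and 0.697 in that order. Gins3 had the widest spread of these, at 19.6 and 24.6 CPM in the ESCs libraries, and without ESCs replicate 2 it was called higher at 0.39 (adjusted p = 0.00873). Cdc45, the third part of the active helicase, averaged 66.6 ± 0.0978 CPM in rfISCs and 69.2 ± 3.48 CPM in ESCs (log2 fold change -0.06, adjusted p = 0.551, edgeR).

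The clamp Pcna and 4 of the 5 subunits of the clamp loader, which opens the clamp and sets it on primed DNA, were called higher in rfISCs, and the fifth subunit, Rfc5, was called lower. These shares were 83.3% higher and 16.7% lower, against 27.3% and 26.4% of all tested genes. Rfc3 had 55.0 and 57.0 CPM in rfISCs against 32.6 and 35.0 CPM in ESCs. Its 1.66-fold rise was close to that of Cdc6 (log2 fold change 0.73, SE 0.0822, adjusted p = 7.35e-05, edgeR). Rfc5 had 119 and 107 CPM in rfISCs against 135 and 136 CPM in ESCs, a fall of 1.20-fold (log2 fold change -0.26, SE 0.0686, adjusted p = 0.00985, edgeR). On log2(TPM + 1) the Rfc5 difference had the other sign, at 0.10 (adjusted p = 0.469, limma), and with the library medians subtracted it was -0.05 (adjusted p = 0.740). The ratio of Rfc3 to Rfc5 CPM was 0.462 and 0.533 in rfISCs, against 0.241 and 0.258 in ESCs.

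The remaining clamp genes rose by smaller amounts, and none of their calls held in every alternative. Rfc4 had 35.3 and 40.0 CPM in rfISCs against 25.3 and 30.5 CPM in ESCs (log2 fold change 0.43, SE 0.115, adjusted p = 0.0109, edgeR), with a wide spread in both groups; its call was lost without rfISCs replicate 2 (adjusted p = 0.0802), on log2(TPM + 1) (adjusted p = 0.0717, limma), on log2(TPM + 0.1) (adjusted p = 0.0747) and on the median-centred scale (adjusted p = 0.186). Rfc1, the large subunit, had 188 and 191 CPM in rfISCs against 163 and 166 CPM in ESCs (log2 fold change 0.20, adjusted p = 0.0118, edgeR). Its call was lost on the median-centred scale (adjusted p = 0.0734, limma). Rfc2 had 94.0 and 89.6 CPM in rfISCs against 77.4 and 81.5 CPM in ESCs (log2 fold change 0.21, adjusted p = 0.0277, edgeR). With DESeq2 in place of edgeR, Rfc2 was not called (adjusted p = 0.0586, DESeq2). Pcna had 355 and 357 CPM in rfISCs against 312 and 317 CPM in ESCs (log2 fold change 0.18, adjusted p = 0.0120, edgeR). In each of these 3 genes both rfISCs libraries were the higher ones, but the call was lost without either rfISCs library: adjusted p = 0.0727 and 0.118 for Rfc1, 0.217 and 0.0951 for Rfc2, and 0.0834 and 0.108 for Pcna, without replicate 1 and without replicate 2. Pcna is also uncertain because the processed copy Pcna-ps2 was given 72.2 and 73.5 CPM in rfISCs and 63.7 and 62.4 CPM in ESCs, and reads of such copies can be divided either way.

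Of the 9 polymerase and primase genes, 2 were called higher, 2 were called lower and 5 were not called, shares of 22.2% in each direction that are below those of all tested genes, and their median log2 fold change was 0.00. The call of Prim2, one of the falls, was lost with Ensembl transcripts alone. Pola1, the catalytic subunit of polymerase alpha, which extends the RNA primer, had 89.9 and 86.2 CPM in rfISCs against 129.8 and 139.6 CPM in ESCs. Both rfISCs values were well below both ESCs values, and the 1.53-fold fall was the largest among the members (log2 fold change -0.61, SE 0.0663, adjusted p = 5.46e-05, edgeR). Prim2, the large subunit of primase, had 43.4 and 36.4 CPM in rfISCs against 55.9 and 60.5 CPM in ESCs, a fall of 1.46-fold (log2 fold change -0.55, SE 0.0997, adjusted p = 0.00144, edgeR). The other genes of the same complex were not called: Pola2 averaged 92.2 ± 5.07 CPM in rfISCs and 92.0 ± 2.37 CPM in ESCs (adjusted p = 0.981, edgeR), and Prim1, the catalytic subunit of primase, 72.4 ± 1.37 CPM in rfISCs and 75.1 ± 7.49 CPM in ESCs (adjusted p = 0.622, edgeR). Both genes overlapped between the groups.

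Pold1, the catalytic subunit of polymerase delta, which copies the lagging strand, had 144 and 151 CPM in rfISCs against 105 and 104 CPM in ESCs. The groups did not overlap, and it rose 1.41-fold (log2 fold change 0.50, SE 0.0600, adjusted p = 0.000112, edgeR). Pold3, an accessory subunit, had 92.5 and 91.4 CPM in rfISCs against 79.0 and 78.1 CPM in ESCs (log2 fold change 0.23, adjusted p = 0.0144, edgeR). Its call was lost without rfISCs replicate 1 (log2 fold change 0.22) or replicate 2 (0.23). It was also lost on median-centred log2(TPM + 1) (0.18, adjusted p = 0.129, limma). Pold2 averaged 79.4 ± 7.59 CPM in rfISCs and 73.5 ± 0.601 CPM in ESCs (adjusted p = 0.285, edgeR). Of polymerase epsilon, which copies the leading strand, the catalytic subunit gene Pole averaged 177 ± 2.88 CPM in rfISCs and 185 ± 0.281 CPM in ESCs (adjusted p = 0.332, edgeR), and Pole2 31.8 ± 1.93 CPM in rfISCs and 27.0 ± 2.63 CPM in ESCs (adjusted p = 0.0835, edgeR). Pole2 was called higher with library totals at 0.32 (adjusted p = 0.0284) and without ESCs replicate 2 at 0.34 (adjusted p = 0.0121), but with Ensembl transcripts alone its log2 fold change was -0.08 (adjusted p = 0.773), and its assembled transcript had counts in rfISCs replicate 1 alone. The ratio of Pola1 to Pold1 CPM was 0.622 and 0.572 in rfISCs, against 1.23 and 1.34 in ESCs, so the gene with more counts was Pold1 in both rfISCs libraries and Pola1 in both ESCs libraries. Since CPM is not divided by transcript length, this order compares counts and not molecules.

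RPA coats single-stranded DNA behind the helicase. Its middle subunit gene Rpa2 had 99.2 and 99.9 CPM in rfISCs against 67.2 and 67.3 CPM in ESCs, with very little spread within either group (1.48-fold higher, log2 fold change 0.57, SE 0.0646, adjusted p = 7.88e-05, edgeR). The large subunit gene Rpa1 had 211 and 208 CPM in rfISCs against 212 and 227 CPM in ESCs (log2 fold change -0.07, adjusted p = 0.348, edgeR). The small subunit gene Rpa3 had 30.6 and 36.6 CPM in rfISCs against 39.3 and 40.1 CPM in ESCs (log2 fold change -0.24, adjusted p = 0.0791, edgeR). Rpa3 was called lower without ESCs replicate 1 (-0.26, adjusted p = 0.0317) and without rfISCs replicate 2 (-0.38, adjusted p = 0.0344). The 3 subunits of RPA thus had a single call among them (33.3% higher, against 27.3% of all tested genes).

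Of the genes that mature Okazaki fragments, the flap endonuclease gene Fen1 had 90.9 and 103 CPM in rfISCs against 73.1 and 75.9 CPM in ESCs (log2 fold change 0.38, SE 0.0776, adjusted p = 0.00279, edgeR); without rfISCs replicate 2 the adjusted p was 0.052. Lig1, the ligase that seals the fragments, averaged 284 ± 4.91 CPM in rfISCs and 278 ± 5.80 CPM in ESCs, and the groups overlapped (log2 fold change 0.03, adjusted p = 0.682, edgeR). Among the genes that supply nucleotides, both subunits of ribonucleotide reductase were called higher. Rrm1 had 265 and 267 CPM in rfISCs against 192 and 205 CPM in ESCs, a rise of 1.34-fold (log2 fold change 0.42, SE 0.0560, adjusted p = 0.000203, edgeR). Rrm2, the subunit that varies through the cell cycle, had 321 and 332 CPM in rfISCs against 267 and 266 CPM in ESCs, a rise of 1.23-fold (log2 fold change 0.29, SE 0.0507, adjusted p = 0.00102, edgeR).

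The thymidine route was less clear. Tk1, the salvage kinase, had 47.7 and 45.8 CPM in rfISCs against 39.1 and 37.8 CPM in ESCs (log2 fold change 0.28, SE 0.0808, adjusted p = 0.0155, edgeR), and its call was lost without rfISCs replicate 1 (adjusted p = 0.119) or replicate 2 (adjusted p = 0.0625). Tyms, which makes thymidylate from deoxyuridylate, averaged 134 ± 2.05 CPM in rfISCs and 143 ± 0.580 CPM in ESCs (log2 fold change -0.10, adjusted p = 0.164, edgeR).

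Levels of different genes can be compared on TPM, which is divided by transcript length. TPM summed over the 46 members was 4719 and 4742 in rfISCs, against 3737 and 3784 in ESCs. These sums were not centred between libraries, and on log2(TPM + 1) the median difference of all genes was itself 0.15. Within the ring, the order of mean TPM was Mcm7, Mcm3, Mcm5, Mcm2, Mcm6, Mcm4 in both states. Mcm7 had 385 ± 7.92 TPM in rfISCs and 223 ± 6.68 TPM in ESCs, and Mcm4 had 140.1 ± 3.18 TPM in rfISCs and 93.3 ± 0.955 TPM in ESCs, so the level of the first was 2.75 times that of the last in rfISCs and 2.39 times in ESCs, although the proteins form a ring with one copy of each. Mcm3 at 239.9 ± 9.50 TPM and Mcm5 at 229 ± 0.212 TPM were the closest neighbours in rfISCs, apart by little more than the SD of Mcm3. In the origin recognition complex Orc6 had the most, with 114 ± 1.63 TPM in rfISCs and 116 ± 5.28 TPM in ESCs, and Orc1 the least, with 40.1 ± 1.98 TPM in rfISCs and 41.5 ± 0.311 TPM in ESCs. In RPA the level of Rpa1 was 1.49 times that of Rpa2 in rfISCs and 2.30 times in ESCs. Rfc3 had the lowest TPM of the clamp loader genes in ESCs, at 38.0 ± 1.94, close to Rfc4 at 38.9 ± 7.97; in rfISCs Rfc3 had 70.3 ± 0.0141 TPM and Rfc4 53.1 ± 3.89 TPM.

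Sums over transcripts can hide which transcripts were counted. Transcripts annotated as protein coding held 85.1% and 85.4% of the members' counts in rfISCs, against 84.3% and 84.1% in ESCs; transcripts that the authors assembled without an Ensembl ID held 10.2% and 10.05% in rfISCs, against 10.9% and 11.4% in ESCs. The most abundant transcript was a protein coding Ensembl transcript for 43 members and an assembled one for Cdc45, Mcm7 and Tyms. In Rfc2, transcripts annotated as retaining an intron held 52.3% and 51.2% of the counts in rfISCs, against 47.4% and 48.2% in ESCs. The leading Rfc2 transcript had a log2 ratio of 0.13 with an adjusted p of 0.530 in the authors' deposited table. For some of the genes that fell, the difference lay in the assembled transcripts. The leading Ensembl transcript of Prim2 had 39.3 and 33.3 CPM in rfISCs against 38.0 and 40.6 CPM in ESCs, with overlap, while its assembled transcripts had 3.92 and 2.81 CPM in rfISCs against 17.4 and 18.7 CPM in ESCs. In the authors' deposited table the leading Prim2 transcript had a log2 ratio of -0.07 with an adjusted p of 0.874. With Ensembl transcripts alone, the log2 fold change of Prim2 was -0.15 and was not called (adjusted p = 0.348, edgeR).

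Orc3 and Pola1 differed in this respect. The leading Ensembl transcript of Orc3 had 34.9 and 25.6 CPM in rfISCs against 35.2 and 35.0 CPM in ESCs, and its assembled transcript had 16.9 and 14.3 CPM in rfISCs against 30.3 and 28.1 CPM in ESCs. Without the assembled transcript, Orc3 was not called (log2 fold change -0.21, adjusted p = 0.0928, edgeR). The leading Ensembl transcript of Pola1 had 88.4 and 72.01 CPM in rfISCs against 115 and 104.7 CPM in ESCs, so the fall was present there too, and Pola1 kept its call with Ensembl transcripts alone. In the authors' deposited table this transcript had a log2 ratio of -0.41 with an adjusted p of 0.0124. Pole2 had an assembled transcript at 12.2 CPM in rfISCs replicate 1 and at 0 in the other 3 libraries. Orc6, Rfc2, Rfc4 and Tk1 also lost their calls with Ensembl transcripts alone (adjusted p = 0.0663, 0.0799, 0.0513 and 0.0527, edgeR). Rfc2, Rfc4 and Tk1 had no assembled transcripts to leave out. Their log2 fold changes moved little, from 0.21, 0.43 and 0.28 to 0.19, 0.42 and 0.27. That of Orc6 was -0.22 in this setting, against -0.19 with all transcripts. Why these calls were lost was not tested.

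**Figure D4:**
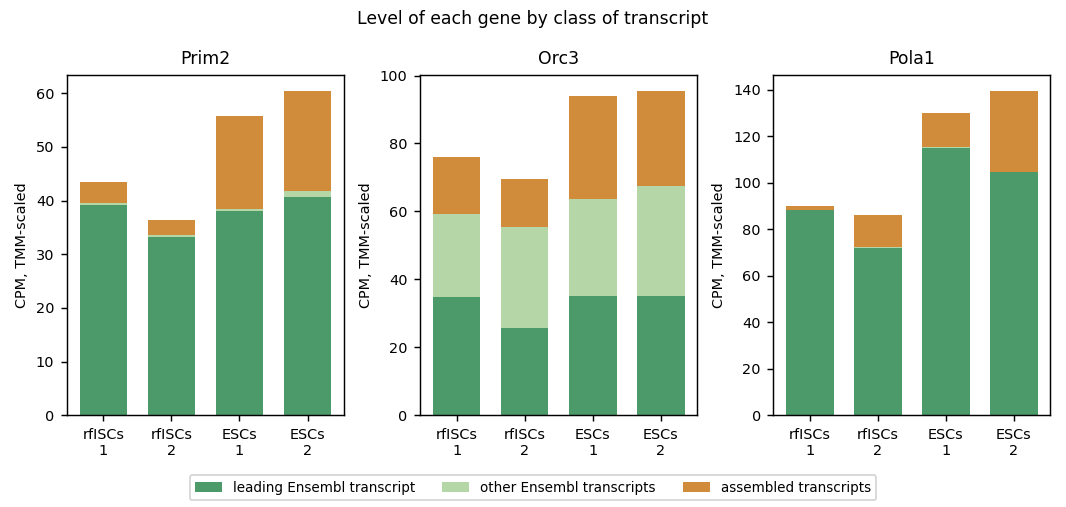
CPM of Prim2, Orc3 and Pola1 in each library, as stacked bars for the leading Ensembl transcript, the other Ensembl transcripts and the assembled transcripts. In Prim2 the assembled part differs between the states (3.92 and 2.81 CPM in rfISCs, 17.4 and 18.7 CPM in ESCs) while the leading transcript overlaps; in Pola1 the leading transcript is lower in both rfISCs libraries.

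Exons of 17 members overlap an exon of another gene in the GENCODE M21 annotation, 14 of them on the opposite strand, and whether the counting used strand is not given in the sources used here. Such reads cannot be told apart without strand. Rfc5 overlaps Wsb2, which had 899 and 860 counts in rfISCs against 1576 and 1637 in ESCs. Rfc4 overlaps the translation factor gene Eif4a2, which had 11579 and 12970 counts in rfISCs against 22831 and 28029 in ESCs, and Orc6 overlaps Vps35, which had 5367 and 5713 counts in rfISCs against 6705 and 7901 in ESCs. These 3 neighbours had fewer counts in both rfISCs libraries, as Rfc5 and Orc6 had in CPM and Rfc4 had not. Other neighbours had more raw counts there, like the called member beside them, though both rfISCs libraries had larger TMM library sizes than both ESCs libraries. Gins2 overlaps Gse1 (1685 and 1865 counts in rfISCs, 1245 and 1139 in ESCs). Fen1 overlaps Tmem258 (1016 and 1249 in rfISCs, 849 and 866 in ESCs). Mcm7 overlaps Cops6 (2220 and 2505 in rfISCs, 2352 and 2782 in ESCs), whose raw counts overlapped between the states. Relative to TMM library size, Cops6 was lower in both rfISCs libraries, while Mcm7 was higher. On that scale Tmem258 was nearly equal in replicate 1 of the 2 states. The part of all these neighbours in the members' values was not tested.

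A further list of 53 replication genes, none of them among the 46, had 24 called higher (45.28%, against 27.3% of all tested genes), 8 called lower (15.09%, against 26.4%) and 21 not called, with a median log2 fold change of 0.15. Nasp, a histone chaperone gene, had 943 and 954 CPM in rfISCs against 557 and 564 CPM in ESCs, a rise of 1.69-fold (adjusted p = 8.05e-07, edgeR). Clspn, which relays fork stalling to the checkpoint kinase Chk1, had 90.9 and 89.7 CPM in rfISCs against 54.9 and 57.4 CPM in ESCs, a rise of 1.61-fold (adjusted p = 3.44e-05, edgeR). Top1, the topoisomerase that relieves torsion ahead of forks, rose 1.57-fold, Samhd1, which degrades deoxynucleotides, 1.51-fold, Chaf1a, the large subunit of chromatin assembly factor 1, 1.47-fold, and the helicase gene Recql4 1.46-fold. Their adjusted p-values from edgeR ranged from 2.68e-05 for Top1 to 0.000879 for Recql4, and that of Chaf1a was 0.196 with Ensembl transcripts alone.

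The called falls in this list included the genes of the firing factors Mtbp and Ticrr, which act together when a licensed origin is activated. Mtbp had 35.5 and 35.8 CPM in rfISCs against 65.6 and 74.7 CPM in ESCs, a fall of 1.97-fold (log2 fold change -0.98, SE 0.0870, adjusted p = 1.53e-05, edgeR). Ticrr had 68.9 and 72.3 CPM in rfISCs against 109.5 and 99.6 CPM in ESCs, a fall of 1.48-fold (log2 fold change -0.57, SE 0.0733, adjusted p = 0.000175, edgeR). Rif1, which sets the timing of origin firing, had 332 and 368 CPM in rfISCs against 547 and 575 CPM in ESCs, a fall of 1.60-fold (adjusted p = 1.42e-05, edgeR); with Ensembl transcripts alone it was not called (log2 fold change -0.13, adjusted p = 0.231). In all 3 genes both rfISCs libraries were below both ESCs libraries. Rnaseh2b, a subunit of the ribonuclease that removes ribonucleotides from DNA, fell 1.53-fold, Shmt1, an enzyme of folate metabolism, 1.45-fold, and Mcm9, the partner of Mcm8, 1.38-fold (adjusted p = 9.19e-05, 0.000281 and 0.00465, edgeR). The calls of Shmt1 and Mcm9 were lost on log2(TPM + 1), with adjusted p of 0.199 and 0.533 (limma).

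The E2F factors drive many replication genes, with E2f1, E2f2 and E2f3 known mainly as activators and the others mainly as repressors. Of 17 genes for E2F factors, their dimer partners, the pocket proteins and the proteins that join them in the DREAM and B-Myb complexes, 8 were called higher (47.06%, against 27.3% of all tested genes), 3 lower (17.65%, against 26.4%) and 6 were not called, with a median log2 fold change of 0.27. Their summed CPM was lower in rfISCs, at 1229 and 1231, against 1407 and 1315 in ESCs. The CPM of Mybl2 alone, given below, fell by more than this sum did. The largest change was in E2f7, an atypical repressor and itself an E2F target, with 46.8 and 49.9 CPM in rfISCs against 22.7 and 22.5 CPM in ESCs. It rose 2.14-fold (log2 fold change 1.10, SE 0.0885, adjusted p = 8.23e-06, edgeR), but on log2(TPM + 1) the rise of 0.87 was not called (adjusted p = 0.0844, limma). The second atypical factor, E2f8, had 24.1 and 23.1 CPM in rfISCs against 17.9 and 16.1 CPM in ESCs (1.39-fold higher, adjusted p = 0.00579, edgeR). E2f4 rose 1.41-fold and E2f6 1.44-fold (adjusted p = 0.000307 and 0.000967, edgeR). E2f3 rose 1.31-fold (adjusted p = 0.00422, edgeR). Its call was lost without rfISCs replicate 2 (log2 fold change 0.32) and with Ensembl transcripts alone (0.23, adjusted p = 0.121, edgeR). It was also lost on median-centred log2(TPM + 1) (0.39, adjusted p = 0.0536, limma).

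The 3 called falls of this list, named here after their values were seen, were in Mybl2, Rbl1 and Lin9. Mybl2, the gene of B-Myb, had 394 and 401 CPM in rfISCs against 799 and 709 CPM in ESCs, the most of any gene in the list, and fell 1.90-fold (log2 fold change -0.92, SE 0.0605, adjusted p = 2.24e-06, edgeR). The pocket protein gene Rbl1 fell 1.59-fold (adjusted p = 0.00252, edgeR), and Lin9, the gene of a subunit shared by these complexes, 1.39-fold (adjusted p = 0.00353, edgeR). The called rises outside the E2f genes, also named after their values were seen, were in Rb1, Tfdp2 and Tfdp1. The pocket protein gene Rb1 rose 1.81-fold, and the dimer partner genes Tfdp2 and Tfdp1 rose 1.76-fold and 1.62-fold. In TPM, Rb1 overlapped between the states (30.77 and 24.24 in rfISCs, 24.35 and 26.05 in ESCs).

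The other E2F genes were not called by edgeR, though E2f5 was called higher on log2(TPM + 1) (0.31, adjusted p = 0.0417, limma). E2f1 had 32.2 and 31.2 CPM in rfISCs against 36.5 and 31.2 CPM in ESCs (adjusted p = 0.457, edgeR), with overlap. E2f2 averaged 13.1 ± 0.355 CPM in rfISCs and 11.7 ± 0.593 CPM in ESCs (adjusted p = 0.363), and E2f5 37.2 ± 1.20 CPM in rfISCs and 33.6 ± 2.45 CPM in ESCs (adjusted p = 0.216, both edgeR). Of 22 mitotic genes, set beside these as genes that act later in the cycle, 13 were called higher (59.09%), none lower and 9 were not called, with a median log2 fold change of 0.20; of all tested genes, 27.3% were higher and 26.4% lower. All these lists share the 4 libraries, so their medians are not independent of those of the replication genes.

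**Figure D5:**
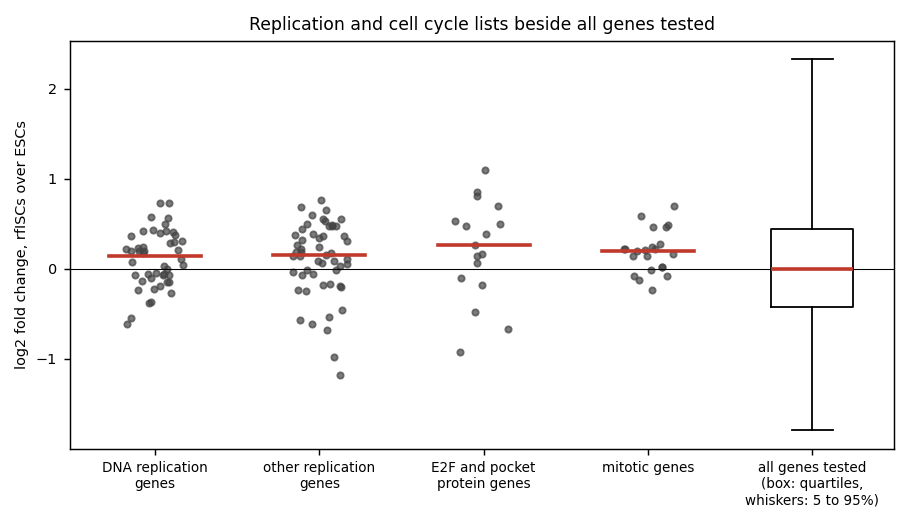
Log2 fold change, rfISCs over ESCs, of each gene in the 4 lists (points, with a red line at the median of each list) beside all genes tested (box at the quartiles, -0.42 and 0.45, whiskers at the 5th and 95th percentiles). The 46 replication genes have a median of 0.14 and stay between -0.61 and 0.73.

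The E2F letters shown in the promoter sequences above were common among the members. Of the 46 members, 38 had a promoter entry in the RefSeq table, and 16 of the 38 (42.1%) held at least 1 of the 4 E2F sequences on either strand, against 533 of 11585 tested genes with an entry (4.60%). By role, they were found in 4 of 5 ring genes, 2 of 6 origin recognition genes, 4 of 7 polymerase and primase genes, both licensing genes with an entry (Cdc6 and Cdt1) and none of the RPA or nucleotide supply genes. By call, they were found in 9 of the 18 members called higher, 2 of the 5 called lower and 5 of the 15 not called, so members with these letters are found in all 3 classes; the windows of Pola1 and Orc3, which fell, hold them as those of Cdc6 and Rfc3 do. The sequence CCAAT, the site of the factor NF-Y, on either strand was found in 24 of 38 members (63.2%), against 43.6% of tested genes, and TTTGAA, the cell cycle homology region of later genes, on either strand in 5 of 38 (13.2%), against 14.5%. No sequence searched contains that of another motif, but matches of the E2F sequences can share letters, as those at -153 and -149 in Mcm5 and at -110 and -106 in Mcm6 do. A match is a description of the window and was not tested as a site.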

How the data were processed

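RNA sequencing of 2 rfISCs and 2 ESCs libraries of mouse 46C cells was analysed from 1 deposited table with a row for each of 160308 transcripts, 142434 with an Ensembl ID and 17874 assembled by the authors. Per the file headers, the authors deposited estimated counts, which were not scaled between libraries, and TPM per library and as group means. Deposited with them were, per transcript, the fold ratio (rfISCs over ESCs), the log2 of that ratio, and raw and adjusted p-values. Bowtie 0.12.2 and the build mm9 are listed, with no role, per the submitters' processing notes; the quantifier, annotation and strand setting are not given in the sources used here, so genes with overlapping neighbours or processed copies are uncertain.

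Counts were summed per gene name and rounded. The 3382 transcripts with no gene name (1.27% and 1.22% of counts in rfISCs, 1.58% and 1.62% in ESCs) were left out. Genes passing filterByExpr (minimum count 10) were tested with edgeR 4.0.16 in R 4.3.3 by the quasi-likelihood test with TMM scaling and group as the model term, and called at a Benjamini-Hochberg adjusted p under 0.05 over 16355 genes. CPM used TMM library sizes (factors 1.03 and 1.03 in rfISCs, 0.969 and 0.973 in ESCs). An SE is the size of a log2 fold change over the square root of its F statistic. For 1 gene alone, permuting 2 rfISCs and 2 ESCs libraries gives an exact two-sided p of at least 0.333, which is why calls come from edgeR's shared fit. Replicates differed by more than sampling noise (chi-square per degree of freedom 4.55 in rfISCs and 6.71 in ESCs, genes with at least 20 counts). The tests were first tested on simulated data.

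The 46 genes and the other lists were chosen with earlier results of these data known. All 46 are named, with values per library for called genes and the subunits set beside them; of the 53 other replication genes the 6 largest called rises and falls are named, and every E2f gene; of mitotic genes counts alone are given. Alternatives were DESeq2 1.42.0, its size factors in edgeR, library totals, no filter, limma 3.58.1 on log2(TPM + 1) and log2(TPM + 0.1) for genes of at least 1 TPM, the replicate number as a block, Ensembl transcripts alone, each library left out and, chosen after seeing the data, median-centred log2(TPM + 1). Transcript types came from GENCODE M21 by Ensembl ID. Promoters are from RefSeq (GRCm38.p6), which may differ from the authors' build, and were matched by gene symbol.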

Additional observations from a re-analysis of the deposited data

How the results depend on the processing

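The 46 genes gave 21 higher and 6 lower calls, and their number moved with some choices. With 1 library left out, 12 to 23 were higher and 5 to 9 were lower; the 12 came without rfISCs replicate 2, and the 9 without ESCs replicate 1. Lower calls were 2 on log2(TPM + 1), 2 on log2(TPM + 0.1), 3 on median-centred log2(TPM + 1) and 3 with Ensembl transcripts alone. In this last setting 6305 of all genes were called, against 8783 with all transcripts. For each of these settings the cause was not tested. The sign turned round on log2(TPM + 1) and log2(TPM + 0.1) for Orc4 (0.26 and 0.27), which was called there, and for Rfc5 (0.10 and 0.10), the 1 called member whose sign changed. Another 13 members that were not called changed sign in at least 1 alternative, to values between -0.08 (Pole2, Ensembl transcripts alone) and 0.15 (Tyms, Ensembl transcripts alone), with no call. Of 53 other replication genes, 8 were lower, against 5 on log2(TPM + 1), 5 on log2(TPM + 0.1), 5 on the median-centred scale, 5 with Ensembl transcripts alone and 6 to 10 with 1 library left out. Of the E2F and pocket protein genes, 8 were higher, against 5 on the median-centred scale, and 3 lower, against 1 on log2(TPM + 1) and 1 on log2(TPM + 0.1). Other settings kept these counts within 1.5 times, and 6154 to 9284 of all genes were called, against 8783. The replicate block gave 21 higher and 6 lower members and changed the call of none of the 46; same-numbered libraries did not deviate together (r = 0.00103 across 16355 genes, which are not independent), so the numbers were not taken to pair them. Leaving out 1 library leaves a lone sample that is assumed to vary like the other group. Each member had 360 or more counts in each library; the effects of culture and of strand were not measured.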
